A study of Mus musculus with 18 samples.

Results

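In a droplet-sequenced mouse glioma made with HRasV12 plus a dominant negative form of p53, 65 of 1365 eligible cells carried a Gfap and Lcn2 gene pattern, or 4.76% (95% Clopper-Pearson interval 3.69 to 6.03). They made up 1.48% of the 4384 cell barcodes of that 10x library. A cell was eligible with at least 5000 unique molecular identifiers (UMIs, each 1 captured RNA molecule), at most 20% of them mitochondrial, fewer than 3 of 6 myeloid genes and fewer than 3 dividing-cell genes detected. Each eligible cell was scored on 4 sets of 6 genes. Set A held Lcn2, Crispld2, Tagln, Mlc1, Slc4a4 and Gfap, set B was led by Plppr1 and Rorb, set C by Otos and Matn4, and set D by Gal and Nefm. A member of the Gfap and Lcn2 state showed at least 2 genes of set A and more of A than of B, C or D. The members were therefore chosen by measured values of this library, and every 10x value below describes them and tests nothing. By the same rule 549 eligible cells belonged to set B, 264 to set C and 122 to set D, and 365 belonged to no set.

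The tumours grew in Boy/J mice, whose age is not given in the sources used here. The 10x and Drop-seq libraries came from untreated Ras tumours, 1 library each, dissociated with collagenase and freed of red cells by lysis. Bulk RNA was sequenced from Ras tumours of mice given vehicle (n = 4, also labelled untreated) or PLX3397 (n = 4), which inhibits the kinase receptors CSF1R, KIT and FLT3, at 100 mg/kg by daily gavage from day 7 until the animals were moribund. All these tumours carried both HRasV12 and the dominant negative p53. There were 2 lines grown from Ras tumours and 3 from PDGF tumours. The 2 kinds of line were kept in different media, those of the PDGF lines with added PDGF, so driver and medium cannot be told apart. CD11b-positive cells were taken from PDGFB tumours after 3 days of PLX3397 (n = 2) or vehicle (n = 1) from day 14. The titles of the tumour and CD11b libraries number them with Ms, which may stand for mouse, and those of the lines number the lines. No label states outright that the bulk libraries of a group came from separate animals, so p-values measure the spread between these libraries.

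Gfap encodes the intermediate filament protein of astrocytes, and gliomas often contain tumour cells that switch on astrocyte genes. Lcn2 encodes lipocalin 2, a secreted protein that binds iron-carrying siderophores and is made by reactive astrocytes and injured epithelia. Mlc1 and Slc4a4 encode a membrane protein of astrocyte endfeet and a sodium bicarbonate cotransporter, while Tagln encodes the actin-binding protein transgelin and Crispld2 a secreted protein of the CRISP family. In GRCm38 coordinates the genes lie at chr11:102887336-102900912 (Gfap, minus strand), chr2:32384633-32388252 (Lcn2, minus), chr8:119992438-120052793 (Crispld2, plus), chr9:45929619-45936058 (Tagln, minus), chr15:88955884-88979007 (Mlc1, minus) and chr5:88886818-89239653 (Slc4a4, plus).

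The 10x library held 59.3 M UMIs (1e6), of which the 65 members held 1.54 M and the other 1300 eligible cells 29.5 M. Member depth ran from 5284 to 109382 UMIs with a median of 14542, against 18618 in the other eligible cells, and the 15 deepest members held 61.3% of the members' UMIs. Median mitochondrial shares were 9.13% and 7.67%. The Drop-seq library shared 0 barcodes with it. Doublets were not removed. Pooled UMIs per 1e6 UMIs of a group (CPM) with exact Poisson intervals are used throughout for groups of cells, and all such intervals cover counting error only.

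Membership was seldom decided by a wide margin. Of the members, 14 showed 2 genes of set A, 22 showed 3, 22 showed 4, 5 showed 5 and 2 showed all 6. The lead over the next set was 1 gene in 33 members, 2 in 21 and 3 in 11. Just outside, 38 eligible cells with 2 or more set A genes tied with another set and 97 fell behind one. A further 19 cells matched the pattern at 3000 to under 5000 UMIs, 15 exceeded the mitochondrial limit alone, 15 the myeloid limit alone and 7 the dividing limit alone. Among the members, 26 had none of the 6 myeloid genes, 32 had 1 and 7 had 2.

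**Figure D1:**
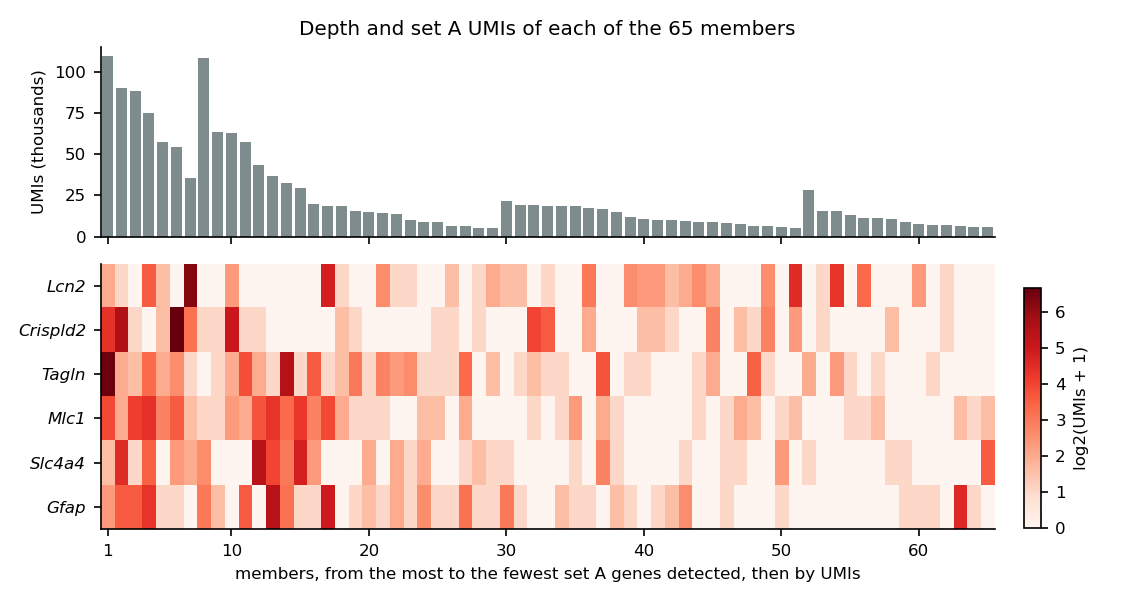
Depth (bars, UMIs per cell) and UMIs of the 6 set A genes on a log2(UMIs + 1) colour scale in each of the 65 members, ordered by set A genes detected and then by depth. No gene is present in every member: Tagln, the most widespread, has a UMI in 43 of 65.

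The set A genes were unevenly spread over the members. Tagln was detected in 43 members, Gfap in 42, Mlc1 in 41, Lcn2 in 32, Slc4a4 in 31 and Crispld2 in 30. Most positive members carried few molecules, with medians between 1 UMI (Gfap) and 3 UMIs (Lcn2 and Slc4a4). Single cells carried far more, reaching 100 UMIs for Crispld2, 94 for Tagln, 76 for Lcn2, 42 for Slc4a4, 42 for Gfap and 20 for Mlc1. A single cell supplied 36.2% of the Crispld2, 33.9% of the Tagln and 32.1% of the Lcn2 UMIs of all members, but 9.95% of the Mlc1 UMIs. Per-cell Gfap ran from 0 through a median of 63.6 to 3525 CPM, and per-cell Lcn2 from 0 through a median of 0 to 4112 CPM.

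Pooled over members, Gfap stood at 147 CPM (128 to 167) against 16.2 CPM in the other eligible cells, and Lcn2 at 154 CPM (135 to 175) against 28.4. Slc4a4 stood at 121 against 3.70 CPM, Mlc1 at 131 against 6.41, Tagln at 180.1 against 10.7 and Crispld2 at 179.5 against 12.8. These ratios, from 5.43-fold for Lcn2 to 32.7-fold for Slc4a4, follow from the rule. Thinned to 5000 UMIs each, 24.6% to 40.0% of members showed a given set A gene, against 1.54% to 4.77% of the other eligible cells. In myeloid cells of the same library, at a median depth of 14774 UMIs and taken as a rough measure of free RNA, the thinned shares were 1.35% to 4.58%. A single myeloid cell held 45.3% of that group's Slc4a4 UMIs, and 1 held 37.9% of its Gfap UMIs. Expression by the myeloid cells themselves and doublets were not tested, so these shares need not be free RNA alone.

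Lcn2 had the lowest pooled ratio of the 6 genes, though by thinned detection Gfap (33.8% of members against 4.77% of other eligible cells) and Crispld2 (24.6% against 3.38%) were less specific than Lcn2 (30.8% against 3.31%). Its pooled level was 6.13 CPM in set B cells, 18.8 in set D, 43.2 in cells of no set and 58.4 in set C, where 1 cell held 314 UMIs or 78.5% of the total. Dividing cells stood at 229 CPM, above the members, and 1 cell held 1127 of their 2151 Lcn2 UMIs, or 52.4%. Gfap was lowest in set D cells (2.69 CPM) and highest, outside the members, in cells of no set (38.7 CPM, 50.2% of it in 1 cell). Lcn2 thus reached its highest counts in a few single cells, also outside the members.

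**Figure D2:**
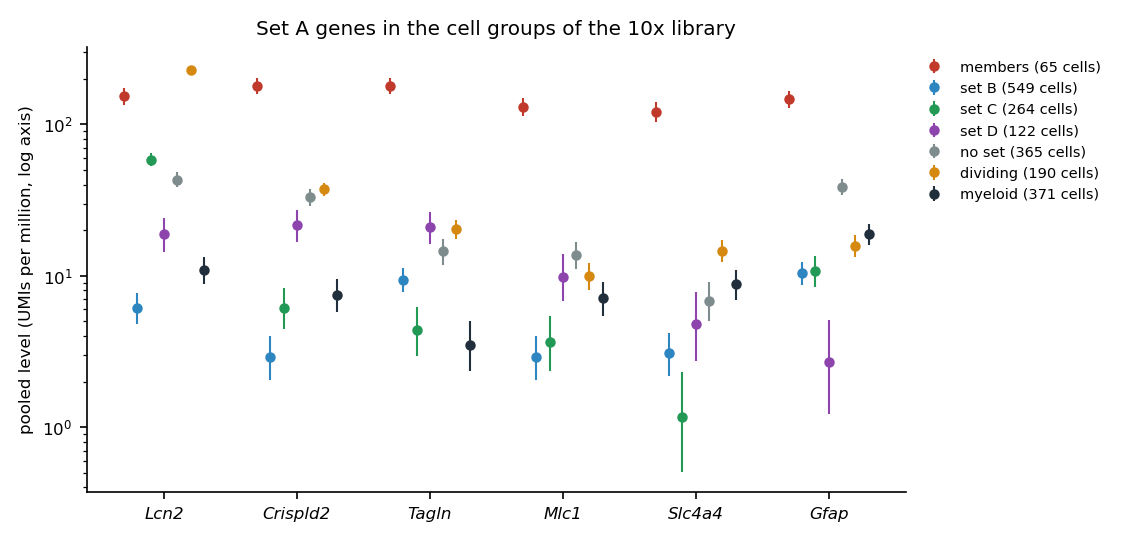
Pooled CPM (log axis) of each set A gene in 7 groups of cells of the 10x library, with 95% Poisson intervals that cover counting error only. Members stand highest for each gene except Lcn2, where dividing cells (229 CPM) exceed the members (154 CPM).

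Within the members the 6 genes split only loosely into 2 trios. Gfap, Mlc1 and Slc4a4 outnumbered Lcn2, Crispld2 and Tagln in 24 members, the reverse held in 21, and 20 were even. In all, 50 members showed at least 1 gene of each trio. Members rich in the Gfap trio had 25.7 CPM of Lcn2 and 239 CPM of Gfap, and members rich in the Lcn2 trio had 449 and 21.6 CPM, a contrast that the split itself makes. Vcam1 and Lcat, which the split did not use, stood at 183 and 128 CPM in the first group and 173 and 157 CPM in the second.

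Clustered without the rule's genes, 25 and 33 of the 65 members fell into 2 of 11 clusters. A cluster of 80 cells, whose leading genes were Crispld2, Slc4a4, Mlc1, Tagln, Lcn2, Scg2, Vcam1 and Lrig1, held 25 members, and a cluster of 163 cells led by Grem1, Gal, Nefm, Lgals7 and Cryab held 33. Depth separated the 2 groups of members, at median UMIs of 32351 and 8732. Set A genes were present in both, with Gfap at 147 CPM in the first and 194 in the second, Lcn2 at 126 and 304, Mlc1 at 166 and 83.4, and Slc4a4 at 159 and 56.6. Among the 15 nearest cells of a member in the same gene space, a median of 6 were members (range 0 to 12), against 0 for other eligible cells, and 9 members had no member neighbour. Members also took up only 31.3% and 20.2% of the cells of these clusters.

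Non-member cells of the first cluster shared part of the profile. Fabp7, a fatty acid binding protein of radial glia and astrocytes, stood at 6800 CPM in its members and 4288 in its other cells, and Vegfa, the vascular growth factor, at 253 and 245. Kcnj10, a potassium channel of astrocytes, stood at 247 and 63.8 CPM. In the Grem1 cluster the neurofilament gene Nefm was at 62.5 CPM in members and 568 in the other cells, and Timp1, a metalloproteinase inhibitor, at 795 and 3665.

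Outside the rule's own genes, the 25 genes with the largest member ratio among those of at least 50 CPM included metallothioneins, secreted proteins, surface proteins and enzymes. Over all 9024 genes of at least 10 CPM in the eligible cells, 340 or 3.77% were 2-fold or more higher in members and 830 or 9.20% lower. Among genes of at least 50 CPM in the higher group, 6.27% were 2-fold or more higher, 5.57% were 2-fold or more lower, and the 25 lead the first of these groups. Nothing is read from that count, since the same cells chose them.

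The metallothioneins, small cysteine-rich proteins that bind zinc and copper, were detected in nearly every member, at levels that varied widely. Mt1 ran from 130 through a median of 2804 to 29773 CPM per member and pooled to 6170 CPM against 769.5 CPM in the other eligible cells, 8.02-fold. Mt2 pooled to 1366 against 208 CPM. All 65 members had an Mt1 UMI. Of sets B, C and D, set D cells came closest with 1586 CPM of Mt1 and 618 of Mt2, and set B cells were lowest with 450.2 and 105 CPM.

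Several of the 25 encode secreted factors. Igfbp2, which binds insulin-like growth factors, was present in 64 of 65 members and pooled to 6842 CPM (6712 to 6974) against 1002. Igfbp2 ran from 0 through a median of 3544 to 46729 CPM per member. Htra1, a secreted serine protease, stood at 905 against 162 CPM and A2m, the protease inhibitor alpha-2-macroglobulin, at 388 against 60.7. Lcat, which esterifies plasma cholesterol, stood at 115 against 9.46 CPM (12.2-fold). Bmper, a modulator of BMP signalling, stood at 61.1 against 5.70 CPM, and Kitl, the ligand of KIT, at 127 against 24.4. Kitl was detected in 35 members and Lcat in 34. Rarres2, the chemerin precursor, had the largest ratio (64.4 against 4.37 CPM, 14.7-fold), but 42.4% of its UMIs lay in 1 member that also carried all 6 ependymal markers.

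Others encode proteins of the cell surface. Vcam1, an adhesion molecule for leukocyte integrins, stood at 156 CPM (137 to 177) in members against 13.2, and Sdc4, a heparan sulfate proteoglycan of focal adhesions, at 1013 against 149. Tm4sf1, a tetraspanin-like membrane protein, stood at 918 against 123 CPM. Lrig1, a negative regulator of ErbB receptors, stood at 137 against 20.7 CPM. Of sets B, C and D, D was again nearest, with 507 CPM of Tm4sf1, 451 of Sdc4 and 412 of Htra1, while Vcam1 was at 32.0 CPM there.

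Enzymes and transporters were also among the 25. Slc25a18, a mitochondrial glutamate carrier, stood at 76.1 against 10.4 CPM, Dhrs1, a short-chain dehydrogenase, at 510 against 92.7, and Ephx1, an epoxide hydrolase, at 88.4 against 17.3. Chchd10, a mitochondrial protein, stood at 105 against 15.9 CPM with 46.3% of its UMIs in 1 cell. All 25 genes were at least 2-fold higher in the members of the first cluster, with a median ratio of 8.44, and 23 of 25 in the members of the Grem1 cluster, with a median of 3.67. Nothing is read from these counts, since the 25 were chosen by the ratio of all members pooled. Those of the first cluster held 1.03 M of the 1.54 M UMIs in that pool. Mt1, for example, reached 7939 CPM in the first group and 3627 in the second.

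Non-members of these clusters carried many of the same genes. In the Grem1 cluster Htra1 stood at 604 CPM in members and 647 in the other cells, Chchd10 at 77.4 and 78.6, Mt1 at 3627 and 2448, and Igfbp2 at 6327 and 3861. Vcam1 stood at 62.5 and 20.2 CPM there. In the first cluster the members were further from the rest, with Mt1 at 7939 and 2270 CPM, Sdc4 at 1254 and 523, and Vcam1 at 211 and 55.6, whereas Kitl was at 157 and 136. The 7 members outside both clusters were not high in several of these genes, with 541 CPM of Mt1, 111 of Sdc4 and 849 of Igfbp2.

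**Figure D3:**
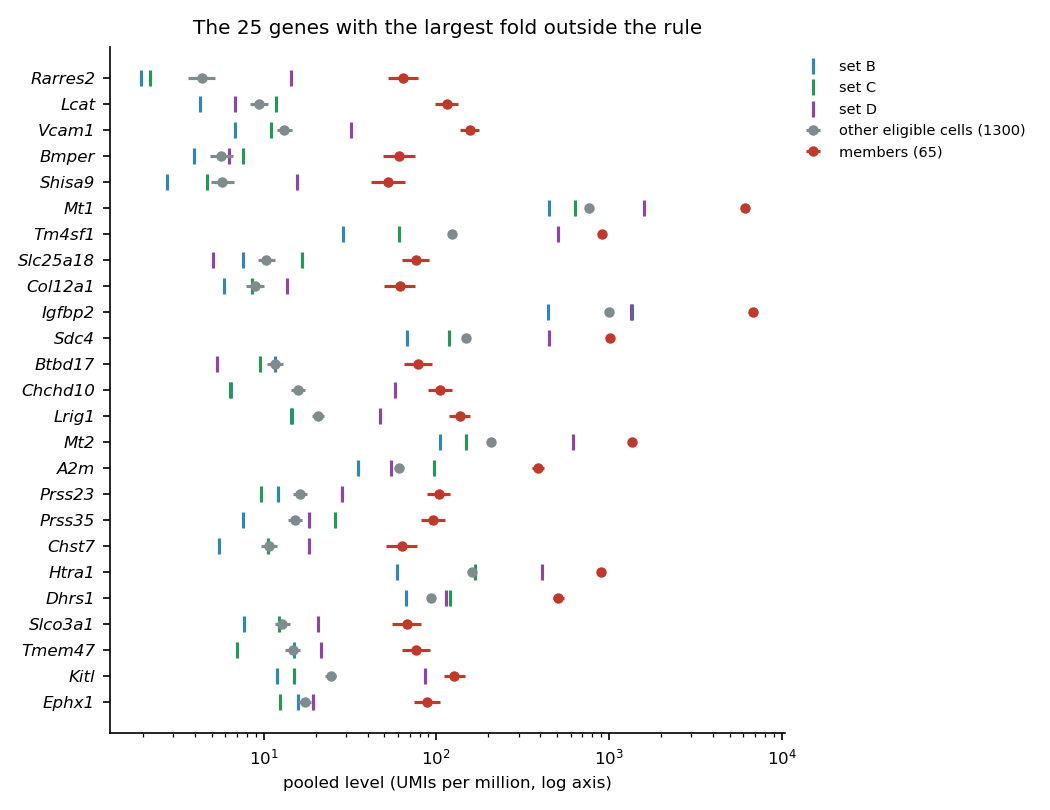
Pooled CPM (log axis) of the 25 genes in the 65 members and in the 1300 other eligible cells, with ticks for the cells of sets B, C and D. Members exceed each of these groups for all 25 genes, and of the 3 sets D is nearest for Tm4sf1, Sdc4 and Htra1.

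For 24 of the 31 genes (set A and the 25), RefSeq gives a promoter on GRCm38.p6, read here as the 250 bases before the start. The Mt1 window printed below has 243 bases, because bases within an annotated exon of the gene were left off. Any window of a gene with several starts was counted. The NF-kB letters, GGG and CC with 5 bases of any kind between, searched on both strands as were the next 3 motifs, were present in 19 of 24 genes (79.2%) and in 48.7% of all 27025 genes. The metal response letters TGCNCNC were in 15 (62.5%) against 47.2%, the AP-1 letters TGANTCA in 3 (12.5%) against 7.82%, the STAT letters TTCNNNGAA in 1 (4.17%) against 8.13%, and TATAA on the gene's strand in 4 (16.7%) against 18.4%. These shares describe letters only. Windows are shown because they belong to a set A gene, a surface gene and a metallothionein, with matches in capitals: the NF-kB letters for Crispld2 (chr8:119992188-119992437, plus strand, 1 match) and Sdc4 (chr2:164443189-164443438, minus strand, 5 matches that partly overlap), and the metal response letters for Mt1 (chr8:94178839-94179081, plus strand, 1 match).
Crispld2: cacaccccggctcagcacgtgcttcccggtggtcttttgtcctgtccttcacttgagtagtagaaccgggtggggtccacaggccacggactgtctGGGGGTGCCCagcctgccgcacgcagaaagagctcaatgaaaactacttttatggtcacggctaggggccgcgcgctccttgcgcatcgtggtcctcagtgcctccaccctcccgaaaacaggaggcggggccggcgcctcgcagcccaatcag
Sdc4: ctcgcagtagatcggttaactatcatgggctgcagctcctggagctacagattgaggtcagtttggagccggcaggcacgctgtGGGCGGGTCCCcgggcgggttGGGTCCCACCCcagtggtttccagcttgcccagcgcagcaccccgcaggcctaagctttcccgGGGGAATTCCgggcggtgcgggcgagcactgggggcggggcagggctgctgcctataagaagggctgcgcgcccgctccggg
Mt1: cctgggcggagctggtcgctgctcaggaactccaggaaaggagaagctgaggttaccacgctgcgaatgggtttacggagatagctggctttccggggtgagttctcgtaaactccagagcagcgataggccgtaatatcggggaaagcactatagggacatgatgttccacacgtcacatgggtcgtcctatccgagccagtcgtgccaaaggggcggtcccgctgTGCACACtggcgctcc

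Astrocyte genes were higher in the members as a group. Of 20 astrocyte markers 14 passed the filter of 10 CPM over eligible cells, 7 of them 2-fold or more higher and 0 lower, and their median log2 ratio was 1.02 against -0.15 over all genes. Acsbg1, an acyl-CoA synthetase of astrocytes, stood at 221 against 75.6 CPM, the inhibitor of differentiation Id3 at 356 against 125, and the glutamate transporter Slc1a2 at 353 against 132. Kcnj10 stood at 224 against 87.8 CPM and the chaperone Clu at 410 against 176. These levels were uneven over the members. In those of the first cluster and of the Grem1 cluster, Acsbg1 stood at 256 and 208 CPM and Id3 at 466 and 137. Slc1a2 stood there at 436 and 155 CPM, Kcnj10 at 247 and 113, and Clu at 502 and 202. The other cells of the first cluster had 550 CPM of Id3, 152 of Acsbg1, 131 of Slc1a2, 63.8 of Kcnj10 and 166 of Clu. Genes of mature astrocytes were scarce: the water channel Aqp4 had 13 UMIs in all members, 7 of them in the cell with ependymal markers, Aldh1l1 had 7 and Gjb6 had 4, all in 1 cell.

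A pair of related lists pointed the same way. Of 14 tested genes of the astrocyte-like glioma list 5 were 2-fold or more higher and 1 lower (median log2 ratio 0.92), among them Mt3 (2046 against 555 CPM), the brain metallothionein, and Fabp7 (5881 against 1846 CPM). The gene lower in members was Cspg5, a neuronal and oligodendroglial proteoglycan, at 378 against 1073 CPM. Of 10 ion, water and bicarbonate genes 4 were higher and 0 lower (median 0.80), with Car2, a carbonic anhydrase, at 171 against 59.9 CPM. Some genes stand in several of these lists.

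Oligodendrocyte progenitor genes were lower in the members. Of 13 tested genes of the progenitor-like glioma list 9 stood at 2-fold or more lower and 0 higher (median log2 ratio -1.49). Sox10, which drives the oligodendrocyte lineage, stood at 35.1 against 217 CPM, Lhfpl3 at 98.2 against 568, and Cspg4, which encodes NG2, at 18.9 against 105. Olig2 and Olig1 were detected but lower, at 146 against 370 CPM and 482 against 1042. Low levels of these genes were not particular to the members. In the first cluster Sox10 stood at 16.5 CPM in members and 52.2 in the other cells, Olig2 at 139 and 121, and Olig1 at 425 and 233. In the Grem1 cluster the values were 44.7 and 38.2 CPM for Sox10, 140 and 71.1 for Olig2, and 509 and 390 for Olig1. Of 11 neural-progenitor-like genes 6 were lower and 0 higher (median -1.49), with a log2 ratio of -2.05 for Dcx, a microtubule protein of young neurons. Against the members of sets B and C alone, the median of this neural list was -0.43.

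Hypoxia and glycolysis genes were higher, 6 of 10 by 2-fold or more and 0 lower, with a median log2 ratio of 1.03. Vegfa stood at 184 against 61.8 CPM, and log2 ratios were 1.32 for the prolyl hydroxylase gene Egln3 and 1.21 for Pfkfb3, a regulator of glycolysis. Vegfa belonged to 1 side of the members: it stood at 253 CPM in those of the first cluster and 23.8 in those of the Grem1 cluster.

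Inflammatory, contractile and Ras-response lists had medians near or below 0, beside -0.15 over all genes. Over all genes 3.77% were 2-fold or more higher and 9.20% lower. In lists this short, counts of 0 higher cannot be told from that share. Of 9 tested acute phase, NF-kB and STAT3 genes 0 were 2-fold or more higher and 1 (Socs3, log2 ratio -1.41) lower, with a median of -0.01. Contractile genes, the class of Tagln, had 0 higher and 1 lower of 13 and a median of -0.06. Of 13 Ras and MAPK feedback genes 0 were higher and 2 (Egr1 and Phlda1) lower, and of 9 immediate early genes 3 were lower, with medians of -0.52 and -0.85. The mesenchymal glioma list had 3 higher and 5 lower of 18 (median -0.13), and of 6 pan-reactive astrocyte genes 2 were higher: Cd44, a hyaluronan receptor (280 against 110 CPM), and Cp, ceruloplasmin (88.4 against 42.6 CPM). Iron-handling genes had 4 higher and 1 lower of 8, matrix genes 3 and 2 of 14 with Sparc at 2684 against 752 CPM, and MHC class I genes 2 and 0 of 7.

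Several of these lists stood otherwise when only the cells of sets B and C served as the comparison, a setting in which 6.15% of all genes were 2-fold or more higher and 11.4% lower, with a median of -0.19. Of the mesenchymal list 10 of 18 genes were then higher and 0 lower, with a median log2 ratio of 1.23. Matrix genes had 8 higher and 1 lower of 14 (median 1.51, against 0.48 with all other eligible cells), MHC class I genes 4 and 0 of 7 (1.15) and contractile genes 3 and 0 of 13 (0.51). The direction of the mesenchymal list thus depended on which cells the members were set against. Of 13 progenitor-like genes 10 were lower and 0 higher in this setting, and of 14 astrocyte genes 7 were higher and 0 lower.

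**Figure D4:**
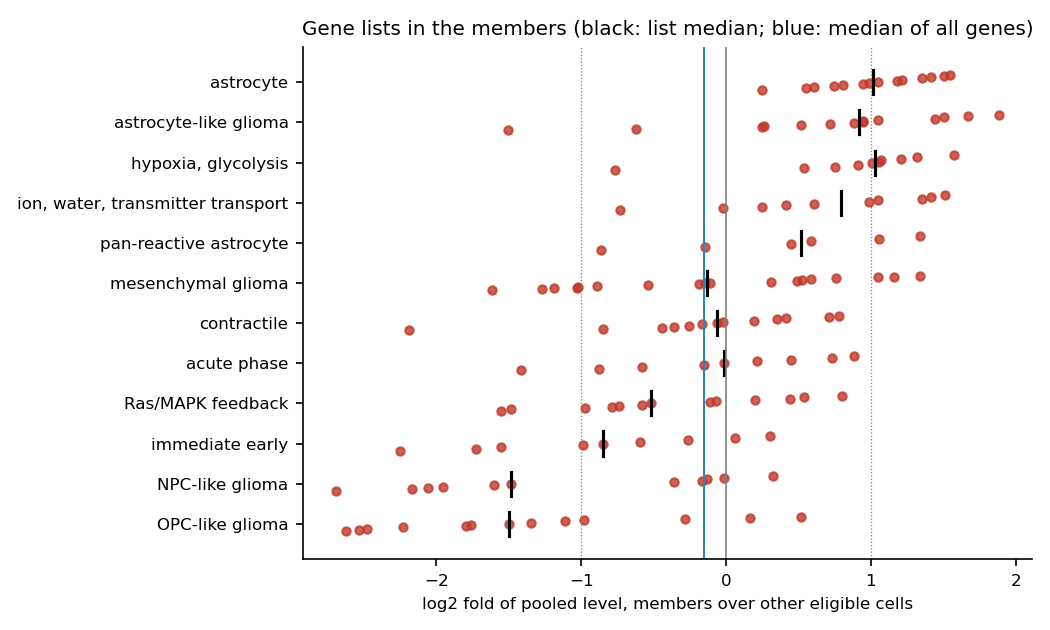
Log2 ratio of pooled CPM, members over other eligible cells, for the tested genes of 12 lists (points), with each list's median in black, the median of all genes (-0.15) in blue and dotted lines at 2-fold. Astrocyte and hypoxia genes lie to the right (medians 1.02 and 1.03) and progenitor genes to the left (-1.49).

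Counts of the endogenous and the introduced gene cannot be told apart under 1 symbol. Hras stood at 178 CPM in members and 131 in the other eligible cells, and Trp53 at 127 and 141. The values thus do not separate tumour cells from host cells. The label's tumour origin was not tested.

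Several of the 10 genes lowest in the members also led clusters of the comparison group. Haemoglobin genes came first, with Hbb-bs at 13.7 against 4931 CPM, and a cluster of 44 cells without members was led by these genes. Mgp, a matrix protein of mural cells and fibroblasts (1.30 against 67.0 CPM), and the protease gene Mmp9 (4.55 against 138 CPM) led a cluster of 29 cells with 2 members. Cd74, the MHC class II chaperone, stood at 4.55 against 61.6 CPM and led a cluster with 1 member. Nppb, a natriuretic peptide gene, stood at 1.95 against 52.1 CPM, and against sets B and C alone its log2 ratio was 0.48. It led the Grem1 cluster, where it stood at 6.0 CPM in members and 344 in the other cells. Klf4, a transcription factor gene, stood at 3.90 against 51.9 CPM and was detected in 382 of the 1300 other cells, and Apod, the apolipoprotein D gene, stood at 9.75 against 148 CPM. Of 9 pericyte genes 8 and of 6 fibroblast genes 5 were 2-fold or more lower.

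Markers of other cell types were seen in some members, most completely in 3. Of these, 2 showed 9 and 8 of 10 endothelial markers and held 99.0% of the members' Cldn5, the tight junction gene. The other showed 6 of 6 ependymal markers, with 58 UMIs of Tmem212, and also had 30 UMIs of Gfap, 27 of Lcn2 and 14 of Mlc1. The summed endothelial level ran from 0 to 11794 CPM per member with Tek at 0, and the summed ependymal level from 0 to 5701. At least 3 of 8 oligodendrocyte markers were seen in 14 members, with Mog and Ermn at 0. At least 3 pericyte or smooth muscle markers were seen in 7 members, at least 3 of 10 further myeloid markers in 6, at least 3 fibroblast markers in 2 and at least 3 erythroid markers in 1. No member had 3 or more T or NK cell or neuron markers. The part of these markers in the values above was not tested. Without the 3 cells all 25 genes, chosen by this ratio in largely the same cells, remained at 2-fold or more. The log2 ratio of Cldn5 turned from above 0 to -5.41.

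The same rule in the shallower Drop-seq library found 3 members among 3174 eligible cells of at least 1000 UMIs, 0.0945% (0.0195 to 0.276). Depth differed, at a median of 1851 UMIs. When 10x cells were thinned to that depth, 21 of 1365 qualified, 1.54% (0.955 to 2.34). The 2 shares come from 1 library each, with eligibility set at full depth in the 10x cells, and their difference was not tested. The 3 cells held 14609 UMIs in all, each with 2 set A genes. They had 7 UMIs of Lcn2, 5 of Slc4a4, 3 of Mlc1 and 1 of Tagln, and 0 of Gfap and Crispld2.

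With so few cells the 25 genes were measured coarsely there. A ratio of 2 or more was reached by 12 of 25, another 11 had 0 UMIs in the 3 cells, and of the 12 that passed the filter 7 reached it. Over 9684 genes the background was 20.0% at 2-fold or more higher and 57.3% lower. Igfbp2 had 42 UMIs, 2875 CPM (2072 to 3886) against 561 in the other eligible cells. Sdc4 had 20 UMIs, 1369 CPM (836 to 2114) against 89.5. Tm4sf1 had 10 UMIs, 685 CPM (328 to 1259) against 230, and Dhrs1 had 5, 342 CPM (111 to 799) against 33.4. Mt1 was not higher, at 685 CPM (328 to 1259) against 707, and Mt2 had 2 UMIs. Apod, low in the 10x members, had 34 UMIs in the 3 Drop-seq members, 2327 CPM (1612 to 3252) against 71.5, opposite to the 10x library. These intervals treat the cells as given.

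In bulk Ras tumours PLX3397 gave no called difference in any of the 31 genes, and 1 vehicle library stood apart for several of them. In bulk tissue fewer cells of a type and less RNA per cell cannot be told apart. By the edgeR quasi-likelihood test with Benjamini-Hochberg adjustment, 0 of 6 set A genes and 0 of the 25 were called, and 0 of 18366 genes overall (0%). At an unadjusted p under 0.05 the counts were 0 of 6 and 1 of 25, against 3.53% of all genes, and DESeq2 called none of the 31 against 0.816% of all genes.

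Gfap stood at 509, 808, 895 and 16.04 CPM in the vehicle tumours and at 1656, 868, 484 and 823 CPM in the PLX3397 tumours. Vehicle replicate 4 was far below the rest, and the groups overlapped. The log2 ratio was 0.78 (SE 0.89, edgeR adjusted p = 1.00). Lcn2 stood at 55.9, 112, 19.1 and 1.64 CPM with vehicle and at 106, 140, 9.83 and 46.1 CPM with PLX3397, a log2 ratio of 0.65 (SE 1.10). Lcn2 was low in vehicle replicate 4 and in PLX3397 replicate 3, and the groups overlapped.

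Mlc1 and Slc4a4 were low in the same vehicle library. Mlc1 stood at 48.5, 102, 80.8 and 1.70 CPM with vehicle and at 192, 107, 40.7 and 69.3 with PLX3397 (log2 ratio 0.80, SE 0.92). Slc4a4 stood at 30.2, 71.6, 86.6 and 4.71 CPM with vehicle and at 103, 65.2, 31.5 and 65.6 with PLX3397 (0.46, SE 0.72). Both overlapped between groups. Crispld2 did not follow this library: it stood at 5.06, 8.18, 8.98 and 10.2 CPM with vehicle and 14.7, 19.03, 8.35 and 12.5 with PLX3397 (0.70, SE 0.31, edgeR unadjusted p = 0.053). Tagln differed by -0.06 (SE 0.38).

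Among the 25 genes 19 lay above 0 with a median log2 ratio of 0.18, against 50.3% and a median of 0.00 over all genes. Igfbp2 had the highest log2 ratio of them, 1.04 (SE 0.84), from 87.2, 98.9, 102.5 and 2.69 CPM with vehicle and 252, 149, 77.3 and 122 CPM with PLX3397. Igfbp2 too was lowest in vehicle replicate 4, and the groups overlapped. Prss23, a serine protease, was the single gene whose groups did not overlap, lower with PLX3397 at a log2 ratio of -0.52 (SE 0.17, edgeR adjusted p = 0.816), against 1.70% of all genes. No gene was wholly higher, against 0.599% of all genes.

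Vehicle replicate 4 was the lowest of its group for 18 of the 31 genes, as for 42.6% of all genes, and PLX3397 replicate 1 was the highest of its group for 16, as for 43.3%. Marker sums of other cells moved with these libraries. The 8 neuron markers summed to 1002, 3302, 2007 and 203 CPM with vehicle and to 3626, 1319, 1157 and 1245 with PLX3397, and the 8 oligodendrocyte markers to 452, 971, 803 and 59.3 and to 1819, 825, 349 and 582 CPM. The 20 astrocyte markers summed to 2500, 5405, 3752 and 1222 CPM and to 5999, 4320, 2168 and 2986 CPM. Their part in the values above was not tested. Without vehicle replicate 4 the edgeR test still called none of the 31 genes.

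**Figure D5:**
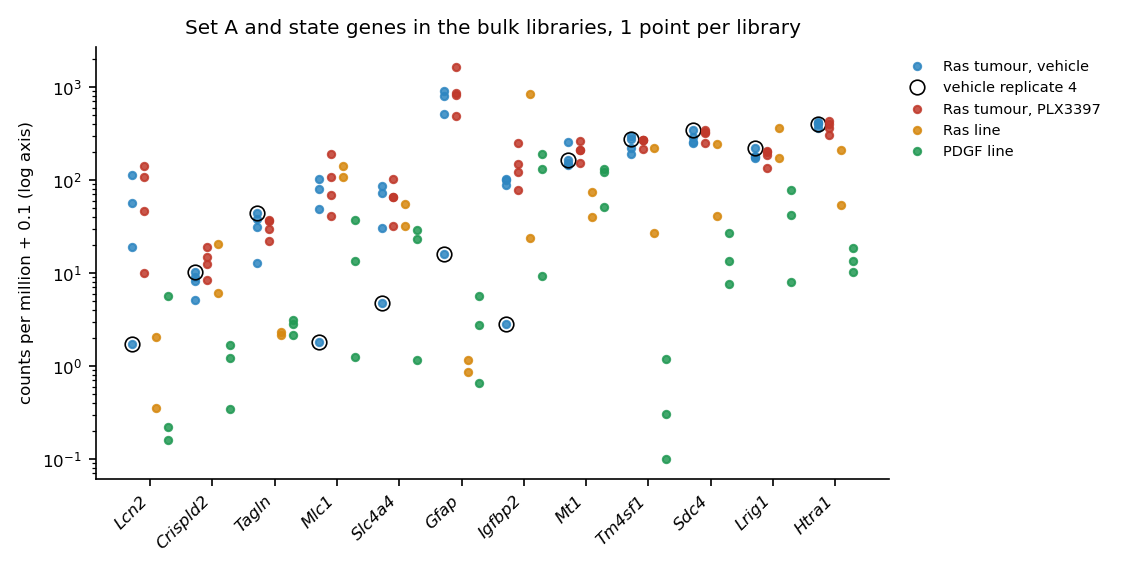
CPM + 0.1 (log axis) of 12 genes in the 8 Ras tumour libraries, 2 Ras lines and 3 PDGF lines, 1 point per library, with vehicle replicate 4 ringed. Gfap, Lcn2, Mlc1 and Igfbp2 are lowest there among the tumours, and Gfap and Lcn2 are at 5.61 CPM or less in the lines.

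In culture the astrocyte genes parted: Mlc1 and Slc4a4 were present in the Ras lines, while Gfap and Lcn2 stayed below 6 CPM in all 5 lines. Mlc1 stood at 107 and 141 CPM in the Ras lines and at 13.3, 1.16 and 36.8 in the PDGF lines, with both Ras lines above all PDGF lines (log2 ratio 2.93, SE 1.25, edgeR adjusted p = 0.336). Slc4a4 stood at 31.6 and 54.7 against 22.8, 1.07 and 28.9 CPM. Gfap stood at 0.754 and 1.07 against 2.67, 0.550 and 5.52 CPM, and Lcn2 at 1.93 and 0.251 against 0.0586, 0.122 and 5.61 CPM. Gfap and Lcn2 overlapped between the kinds of line. Crispld2 stood at 20.4 and 5.93 against 1.11, 0.245 and 1.58 CPM (log2 ratio 3.86, SE 0.99, edgeR adjusted p = 0.228, DESeq2 adjusted p = 0.0022).

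Among the 25, the genes farthest apart between the kinds of line included Kitl, Tm4sf1 and Htra1 on the higher side and Shisa9 on the lower, though edgeR called none. Kitl stood at 122 and 103 CPM in the Ras lines and at 5.71, 7.40 and 4.998 in the PDGF lines, clearly apart (log2 ratio 4.29, SE 0.28, edgeR adjusted p = 0.12, the smallest of the 31). Tm4sf1 stood at 221 and 26.8 against 0.205, 0 and 1.10 CPM (log2 ratio 8.28, SE 1.84). Htra1 stood at 212.4 and 54.1 against 13.2, 10.2 and 18.3 CPM (3.37, SE 0.67). For both genes the Ras lines lay above all PDGF lines and differed from each other severalfold.

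Other genes were mixed. Lrig1 stood at 365 and 171 against 41.7, 7.83 and 77.8 CPM, both Ras lines higher. Igfbp2 stood at 23.9 and 850.2 against 133, 9.20 and 191 CPM, with the 2 Ras lines far apart. Shisa9, an auxiliary subunit of AMPA receptors, was lower in the Ras lines at 0.0559 and 1.07 against 9.61, 23.8 and 15.4 CPM (log2 ratio -4.85, SE 1.32).

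Counted over lists, edgeR called 0 of the 31 genes and 0 of 17475 (0%), with 1 of 6 set A genes and 9 of the 25 at an unadjusted p under 0.05, against 16.3% of all genes. DESeq2 called 1 of 6 and 7 of 25, against 10.4% of all genes. Groups were wholly higher for 3 of 6 and 8 of 25 genes, against 15.5%, and wholly lower for 0 and 3, against 22.2%. Of the 10 genes lowest in the members 5 were tested in the lines, all 5 above 0 with a median log2 ratio of 3.92. DESeq2 called 3 of these 5. Higher levels in the Ras lines were thus not particular to the 25. The median log2 ratio of the 25 was 1.10, with 17 above 0 (50.9% of all genes), beside 0.01 over all genes. Leaving out Ras line 2 turned that median to -0.028, and leaving out Ras line 1 turned it to 1.37. In either fit a single Ras line is left and takes its spread from the PDGF lines. The cause of the difference between these fits was not tested.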

How the data were processed

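Single-cell UMI counts per gene and barcode (10x and Drop-seq) and bulk raw counts per gene symbol were deposited by the authors without normalization. The submitters' processing notes name Cell Ranger, featureCounts 1.6.2, STAR 2.6.1e, cutadapt 1.9.1, Trim Galore 0.4.2 and FastQC 0.11.7, without roles, and the build GRCm38. Bulk totals were 31.3 to 35.9 M (1e6) counts in tumours, 32.0 to 35.9 M in lines and 26.8 to 30.9 M in CD11b-positive cells. Entries with date-like names (27 each among tumours and lines, up to 0.281% and 0.360% of counts) and 1 nameless CD11b entry were dropped. There were 5 columns of the lines that matched no label and were not used. Of tumour and line counts from 1 to 10, 62.8% to 69.4% were even, against 39.9% to 41.9% in CD11b-positive cells, and the counting settings are not given in the sources used here.

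The members and gene lists were chosen with earlier results of these data known. Pooled UMIs were divided by the group's total. Intervals are 95% exact Poisson or Clopper-Pearson. Eligible cells were clustered without the rule's 33 genes (scanpy 1.11.5, 2000 variable genes, 30 principal components, 15 neighbours, Leiden resolution 0.5). The 67 repeated symbols of the 10x table were merged. Bulk groups were fitted 2 at a time with edgeR 4.0.16 (TMM, filterByExpr, robust quasi-likelihood test) in R 4.3.3, with DESeq2 1.42.0 as the alternative and genes called at an adjusted p under 0.05. Named genes were set A, the 25 genes with the highest and the 10 with the lowest member ratio (at least 50 CPM in the higher group and 2-fold), and list genes of at least 20 CPM past 2-fold. Other list genes named at lower levels, and the values by cluster, were picked after their values were seen. On simulated tumour counts edgeR found 6 of 67 genes changed 2-fold, 25 of 67 changed 4-fold and 43 of 66 changed 8-fold (18054 genes). On simulated line counts it found 0 of 67, 1 of 67 and 10 of 66 (17010 genes). Most 2-fold changes would thus be missed in either comparison.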

Additional observations from a re-analysis of the deposited data

Results flagged for a closer look

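Within the tumour groups of 4, 7 of 62 combinations of gene and group had 1 library far from its nearest neighbour for the group's range, where chance flags about 1 in 20. With vehicle, Mt1 was high in replicate 2 (258 CPM), and replicate 4 was apart for Igfbp2 (2.69 CPM) and Slco3a1 (12.9 CPM). With PLX3397, replicate 1 was apart for Shisa9 (35.0 CPM), Tm4sf1 (216 CPM) and Dhrs1 (176 CPM), and replicate 2 for Col12a1 (444 CPM).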

How the results depend on the processing

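All 25 genes stayed at least 2-fold higher in members under each of the 9 other 10x settings. The 25 were chosen as the largest ratios in these same cells, so nothing is read from that count. The astrocyte list kept 0 genes and the progenitor list 8 to 11 of 13 genes at 2-fold or more lower. The member count of 65 became 42 with at least 10000 UMIs, 41 with at most 10% mitochondrial UMIs and 26 with no myeloid gene. Genes 2-fold or more lower, 830, became 1518 after thinning and 1578 with no myeloid gene. Settings chosen after seeing the data were the removal of marker cells, sets B and C as the comparison, and members chosen after thinning. Log2 ratios changed sign for Cldn5 (-5.47 with 3 or more set A genes, -5.41 without marker cells), for Emp1 (0.033) and Spp1 (0.67) without the 1365-cell set's deepest cells (over 40980.8 UMIs), for Uty (0.14) in members chosen after thinning, and against sets B and C for Nppb (0.48), Emp1 (0.37), Nefl (1.53), Rgs5 (0.98), Spp1 (1.96), Tgfb1 (1.79) and Tpm2 (0.38). In the tumours 174 genes were called by DESeq2 and 1 without the filter on low counts, and Tagln turned to 0.01, 0.23 and 0.08 without vehicle replicate 3, vehicle replicate 4 or PLX3397 replicate 2 (range -0.32 to 0.23). In the lines DESeq2 called 8 of 31 genes and 2035 in all, and 1 gene in all was called without the filter. Leaving out 1 line at a time gave 0 to 6 of 31 genes, 0 to 2111 in all and medians of -0.028 to 1.602, the most calls and the lowest median without Ras line 2, where Lcn2 was 0.13 and Igfbp2 -2.10 (ranges -2.91 to 0.13 and -2.10 to 2.94). Without PDGF line 3 Lcn2 did not pass the filter and has no value. The cause was not tested. Single-gene values moved in 446 cases and kept their place in 894. Libraries with the same number in their titles correlated at -0.00, 0.14, -0.45 and 0.55 in tumours, without a shared sign. In lines they correlated at -0.16 and -0.12. The 2 Ras lines deviate from their mean by opposite amounts, so the line values cannot show whether numbers pair the libraries. Numbers were not taken as pairs in the main fits. With the replicate number as a block 0 genes were called in either comparison, the medians were 0.09 and 1.11, Tagln was 0.064 in tumours and Lcn2 3.03 in lines. Depth limits the Drop-seq values, where 3 cells hold 14609 UMIs.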

Other observations

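CD11b-positive cells of PDGFB tumours, which enter no comparison here, also held counts of these genes, with 1 vehicle library and no test. Gfap stood at 282 and 235 CPM in the 2 PLX3397 libraries and 31.9 CPM in the vehicle library. Lcn2 stood at 69.5 and 51.9 against 6.93 CPM, Mlc1 at 28.7 and 18.5 against 2.62 CPM, Slc4a4 at 15.4 and 17.8 against 2.36 CPM, and Igfbp2 at 104 and 81.3 against 7.61 CPM. The astrocyte water channel gene Aqp4, which is not a gene of the state, stood at 62.1 and 50.2 against 5.64 CPM, so it was higher in the same 2 libraries. Its part in the other values was not tested.

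Of the 15 pairs of set A genes, Lcn2 and Crispld2 shared the most cells across the 1365 eligible 10x cells thinned to 5000 UMIs: 14 cells had both, of 63 with Lcn2 and 60 with Crispld2. Mlc1 and Slc4a4 shared 12 cells, of 61 and 36, as did Tagln and Mlc1, of 53 and 61, whereas Lcn2 and Slc4a4 shared 2, Crispld2 and Slc4a4 2 and Crispld2 and Gfap 4. These counts describe 1 library and the cells share its depth.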
